A study of Mus musculus with 8 samples.

Results

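Adipogenic regulators and lipases are the 10 genes Pparg, Cebpa, Cebpb, Cebpd, Zfp423, Prdm16, Ppargc1a, Ppargc1b, Lipe and Pnpla2, taken by name from the 50143 gene IDs of the count table. All 10 were found, and all 10 passed the filter on low counts that left 14887 genes for testing. They were measured by RNA sequencing in 8 whole tumours of Py230, a mouse breast adenocarcinoma line that originates from an MMTV-PyMT mouse. The obese group held 4 tumours whose hosts ate a high-fat diet (60% of calories from fat, 5.1 kcal/g), and the lean group 4 tumours whose hosts ate a regular diet (10%, 3.6 kcal/g). All hosts were female C57BL/6 mice, whose ovaries were removed when they were 6 weeks old and whose diets began 2 weeks later. After 6 weeks of diet, by when the obese group had gained 35% in body weight on average, the cells were placed in mammary gland 4, and tumours were taken on day 56. Every tumour thus comes from 1 cell line in hosts without ovaries, and the fat pad in which it grew is itself adipose tissue. The comparison asks how tumours of obese hosts differ from those of lean hosts.

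The nuclear receptor PPARG, with its partner RXR, and the C/EBP factors form the transcription cascade of fat cell formation. C/EBP beta and delta act early and induce PPARG and C/EBP alpha, which then maintain each other and switch on the genes of lipid storage. ZFP423 marks precursor cells committed to the fat lineage, PRDM16 steers cells towards thermogenic fat, and the coactivators PGC-1 alpha and PGC-1 beta drive mitochondrial genes. Adipose triglyceride lipase (Pnpla2) and hormone-sensitive lipase (Lipe) take the first and second step of triglyceride breakdown. Several of these genes are also active outside fat, C/EBP factors in myeloid and epithelial cells and PPARG in macrophages.

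The sequences before the start sites are shown for 4 genes that passed the test, Pparg as the gene that was higher and Cebpa, Zfp423 and Ppargc1a as genes that were lower in obese tumours. They come from RefSeq (build GRCm38.p6), which gave windows for 8 of the 10 genes, and only bases outside annotated exons are printed. For Pparg the most downstream of 3 listed start sites is shown. Reads were counted per gene, so the start sites of Pparg cannot be told apart in the counts.
Pparg, chr6:115421816-115422065, plus strand: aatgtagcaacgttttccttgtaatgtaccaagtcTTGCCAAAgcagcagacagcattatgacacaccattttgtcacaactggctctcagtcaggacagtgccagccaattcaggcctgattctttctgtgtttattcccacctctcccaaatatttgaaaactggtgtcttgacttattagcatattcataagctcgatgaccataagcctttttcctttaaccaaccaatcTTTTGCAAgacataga
Cebpa, chr7:35119043-35119292, plus strand: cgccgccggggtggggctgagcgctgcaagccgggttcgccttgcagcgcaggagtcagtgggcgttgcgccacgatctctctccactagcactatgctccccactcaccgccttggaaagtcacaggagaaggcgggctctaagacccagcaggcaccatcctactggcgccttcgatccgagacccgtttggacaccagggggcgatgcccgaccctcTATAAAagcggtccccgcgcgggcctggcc
Zfp423, chr8:87959596-87959845, minus strand: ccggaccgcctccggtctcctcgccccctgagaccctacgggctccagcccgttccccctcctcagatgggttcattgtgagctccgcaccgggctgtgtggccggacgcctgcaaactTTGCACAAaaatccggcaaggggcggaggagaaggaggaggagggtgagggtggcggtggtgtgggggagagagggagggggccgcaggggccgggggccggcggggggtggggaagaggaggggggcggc
Ppargc1a, chr5:51567727-51567975, minus strand: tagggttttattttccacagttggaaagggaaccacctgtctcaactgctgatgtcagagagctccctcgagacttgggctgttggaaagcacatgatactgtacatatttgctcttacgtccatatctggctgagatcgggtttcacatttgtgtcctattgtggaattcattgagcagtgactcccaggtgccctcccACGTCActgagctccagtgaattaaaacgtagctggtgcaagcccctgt
Capitals mark matches to 3 of the motifs searched on both strands. These are the C/EBP core TTGCNNAA (2 matches at Pparg and 1 at Zfp423), the TATA box TATAAA (1 match at Cebpa) and the core of the cAMP response element TGACGT (1 match at Ppargc1a, on the opposite strand). The windows searched ran to 300 bases, from 250 before to 50 after the start. The window of Zfp423 shown held a second C/EBP core at base 23, in the exon part that is not printed. The other windows of Pparg and Zfp423, not shown, held no C/EBP core. In 1 of those of Pparg a TATA box match lay at base −29, on the opposite strand. Of 32851 such windows, 10.8% held the C/EBP core, 13.6% the TATA box and 7.51% the cAMP response core. The GC box GGGCGG, held by 35.7% of windows, is left in lower case. The direct repeat element DR1, to which PPAR and RXR bind together, was found in 0.0396% of windows and in none of those of the 8 genes. A match is a string of letters and was not tested for binding.

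Of the 10 genes, 1 was higher and 4 were lower in obese tumours at an adjusted p under 0.05 (edgeR quasi-likelihood test, adjusted over all 14887 genes). Over all tested genes 59.2% passed, 30.9% higher and 28.4% lower, so that 5 of 10 is close to the share over all genes. The median log2 change was −1.19 over the 10 genes and −0.04 over all tested genes. For 4 genes the obese tumours all lay below the lean tumours, and for 0 all lay above. Over all genes the groups did not overlap for 57%, with 28.1% lower and 28.9% higher. Obese replicate 3 stood apart from the other obese tumours. On the first principal component it lay at 12.9, the other obese tumours between −136 and −96.5 and the lean tumours between 70.2 and 93.7, and results are therefore also given without it. Total counts were 25.7 to 66.7 M in obese and 39.0 to 53.7 M in lean tumours. The labels do not say that each tumour came from its own mouse, and p-values measure the spread between these tumours. Fewer cells of a type and less RNA per cell cannot be told apart in whole tumours. Levels are in CPM (counts scaled to library size with TMM factors). Log2 changes are given as obese minus lean, with their SE.

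**Figure D1:**
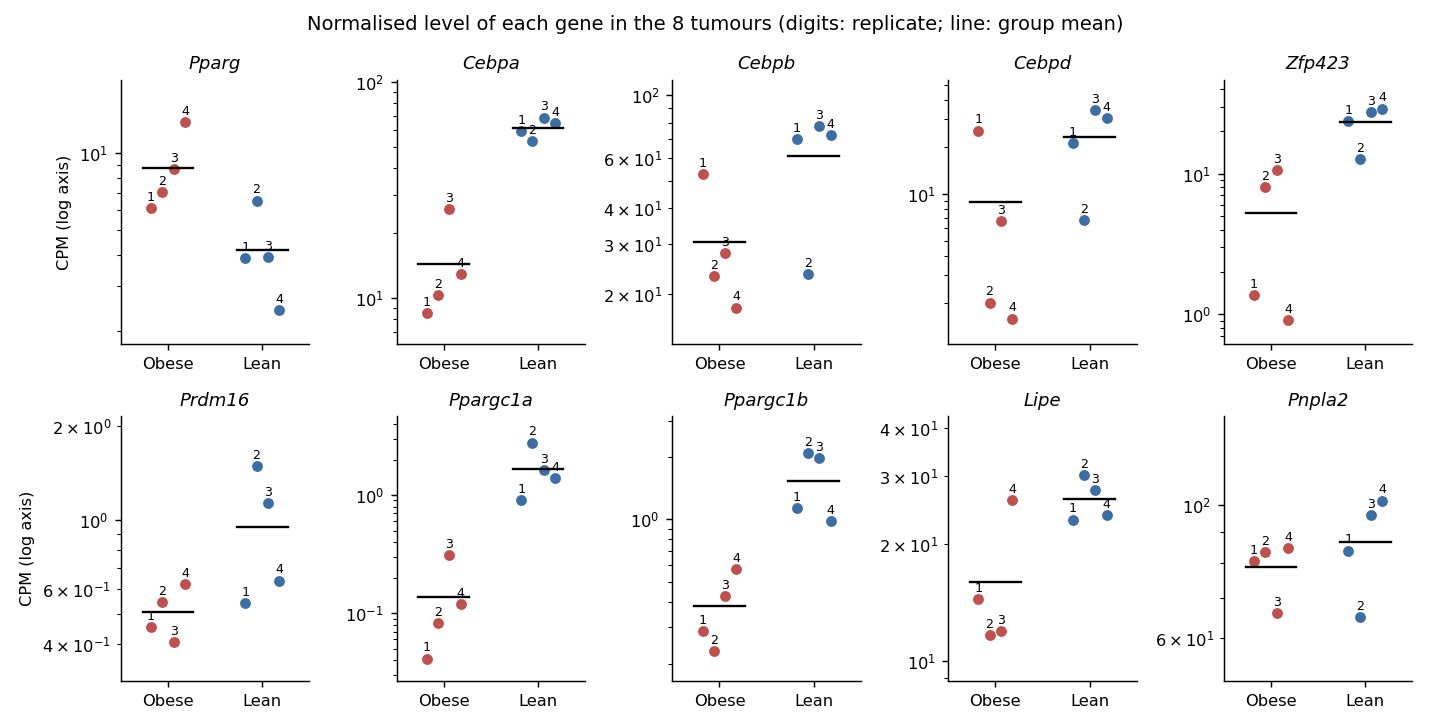
Normalised level (CPM, log axis) of each of the 10 genes in every tumour, obese left and lean right, with digits for the replicate and a line for the group mean of 4 tumours. The groups do not overlap for Cebpa, Zfp423, Ppargc1a and Ppargc1b, and the ranges of Pnpla2 overlap.

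The 2 core regulators moved in opposite directions: Pparg was higher and Cebpa lower in obese tumours. Pparg (ENSMUSG00000000440, chromosome 6, 115360951 to 115490399, GRCm38) stood at 6.11, 7.04, 8.66 and 13.3 CPM in obese replicates 1 to 4, against 3.88, 6.51, 3.90 and 2.41 CPM in lean replicates 1 to 4. Obese replicate 1 lay below lean replicate 2, so the groups overlapped by 1 tumour. The means were 8.77 ± 3.18 CPM in obese and 4.18 ± 1.71 CPM in lean tumours (SD, n = 4 each), a log2 change of 1.07 ± 0.38 (edgeR adjusted p = 0.0406). This call is not stable. It ended without obese replicate 2 (edgeR adjusted p = 0.0505), obese replicate 4 (0.113), lean replicate 1 (0.0857), lean replicate 3 (0.0948) or lean replicate 4 (0.0916), and with 3 other settings, within a range of 0.000798 to 0.113 over 16 alternatives. Without obese replicate 3 the change was 1.09 ± 0.42 (edgeR adjusted p = 0.0497).

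Cebpa (ENSMUSG00000034957, chromosome 7, 35119293 to 35121928) stood at 8.50, 10.4, 25.9 and 13.0 CPM in obese replicates 1 to 4, against 59.5, 53.7, 68.7 and 64.8 CPM in lean replicates 1 to 4. Every obese tumour had less than every lean tumour, and obese replicate 3 had the highest obese value. The means were 14.4 ± 7.84 CPM in obese and 61.7 ± 6.51 CPM in lean tumours, a log2 change of −2.09 ± 0.34 or 4.27-fold lower (edgeR adjusted p = 0.00205). The call held under all 16 alternatives, with adjusted p of 1.51e-09 to 0.00895 and changes of −2.52 to −1.90. Without obese replicate 3 it was −2.52 ± 0.19 (edgeR adjusted p = 5.67e-05). Luminal epithelial markers were lower in the same tumours. Summed over 15 markers they came to 82.2, 285, 1530 and 277 CPM in obese and 4891, 2627, 4368 and 4827 CPM in lean replicates 1 to 4, and 6 of 15 fell while 0 rose (15 and 0 without obese replicate 3). Over all tested genes 28.4% fell and 30.9% rose (33.6% and 31.1% without obese replicate 3). Obese replicate 3 was highest among obese tumours both in this sum and in Cebpa. The part of epithelial content in the Cebpa difference was not tested.

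The early factors Cebpb and Cebpd did not pass the test. Cebpb (ENSMUSG00000056501, chromosome 2) stood at 52.7, 23.1, 27.8 and 17.9 CPM in obese replicates 1 to 4, against 70.1, 23.5, 78.1 and 72.5 CPM in lean replicates 1 to 4. Lean replicate 2 lay within the obese range, apart from the other 3 lean tumours, and obese replicate 1 was the highest obese tumour. The log2 change was −1.01 ± 0.45 (edgeR adjusted p = 0.0817). Without obese replicate 1 it was −1.40 (edgeR adjusted p = 0.0289) and without lean replicate 2 it was −1.28 (0.0187), and the adjusted p spans 0.000511 to 0.193 over 16 alternatives, of which 6 passed.

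Cebpd (ENSMUSG00000071637, chromosome 16) varied most within a group, with 25.4, 2.01, 6.65 and 1.58 CPM in obese and 21.0, 6.82, 34.2 and 30.5 CPM in lean replicates 1 to 4. As for Cebpb, obese replicate 1 had the highest obese value and lean replicate 2 the lowest lean value. The log2 change was −1.38 ± 0.92 (edgeR adjusted p = 0.221), and −2.75 ± 0.75 without obese replicate 1 (edgeR adjusted p = 0.0215), within a range of 0.00134 to 0.405 over 16 alternatives. Both genes share exon bases with a gene on the other strand, and the strand setting of the counting is not stated. For Cebpb this is Tmem189 (20.7% of its exon bases), which fell by 0.54 on the log2 scale, and for Cebpd it is Spidr (15%), which rose by 0.38.

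Within the C/EBP family the balance between members was compared per tumour. Log2 CPM of Cebpa minus that of Cebpb was −1.09 ± 1.11 in obese and 0.15 ± 0.69 in lean tumours (SD, n = 4 each), a difference of −1.24 (two-sided exact permutation test, p = 0.114, 0.152 after adjustment over 4 pairs). For Cebpb minus Cebpd it was 2.52 ± 1.19 in obese and 1.49 ± 0.31 in lean tumours, a difference of 1.03 (exact p = 0.171, adjusted 0.171). The smallest p that 4 against 4 tumours allow is 0.0286. Neither difference passed this test. Given the p-values of the other pairs, neither could have passed after adjustment, so the adjusted test does not decide whether these changes differ.

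Zfp423, a zinc finger factor of fat cell precursors, was lower in obese tumours, while Prdm16, a factor of thermogenic fat, did not pass. Zfp423 (ENSMUSG00000045333, chromosome 8, 87661810 to 87959595) stood at 1.36, 8.08, 10.6 and 0.912 CPM in obese replicates 1 to 4, against 23.7, 12.8, 27.4 and 29.0 CPM in lean replicates 1 to 4. The obese tumours split into a pair near 1 CPM (replicates 1 and 4) and a pair near 10 CPM (replicates 2 and 3), and all lay below the lean tumours. The log2 change was −2.14 ± 0.78 or 4.42-fold lower (edgeR adjusted p = 0.0429), and −2.71 ± 0.79 without obese replicate 3 (edgeR adjusted p = 0.0174). The call is not stable: it ended without obese replicate 1 (0.0778), 2 (0.0590) or 4 (0.0604) and without lean replicate 1 (0.0676), 3 (0.0776) or 4 (0.0794). It also ended with no filter on low counts (0.0577), while limma-voom with quality weights gave −4.01, and the adjusted p ran from 0.000170 to 0.0794 over 16 alternatives. Prdm16 (ENSMUSG00000039410, chromosome 4) was scarce, with 11 to 33 counts or 0.454, 0.544, 0.406 and 0.624 CPM in obese replicates 1 to 4. The lean tumours had 22 to 78 counts or 0.540, 1.49, 1.13 and 0.639 CPM. The groups overlapped, and the log2 change was −0.90 ± 0.41 (edgeR adjusted p = 0.0859).

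Both PGC-1 coactivators were lower in obese tumours, and both were scarce in either group. Ppargc1a (ENSMUSG00000029167, chromosome 5, 51454250 to 51567726) stood at 0.0413, 0.0824, 0.309 and 0.12 CPM in obese replicates 1 to 4, from 1, 5, 16 and 5 counts. Lean replicates 1 to 4 had 0.909, 2.78, 1.62 and 1.39 CPM, from 37, 145, 83 and 78 counts. The groups did not overlap, and the obese values rest on few counts. The log2 change was −3.52 ± 0.64 or 11.5-fold lower (edgeR adjusted p = 0.00314), and −4.25 ± 0.59 without obese replicate 3 (edgeR adjusted p = 0.000624). The call held in the 15 alternatives that kept the gene (3.51e-06 to 0.0130). Skeletal muscle, a tissue rich in PGC-1 alpha, was present unevenly: Ckm stood at 0.372, 1.91, 25.3 and 4.13 CPM in obese and 230.0, 2.53, 13.2 and 204 CPM in lean replicates 1 to 4. Among the obese tumours replicate 3 had the most and replicate 1 the least of both Ckm and Ppargc1a. Lean replicate 2 had the least Ckm and the most Ppargc1a of the lean tumours. Summed over 10 muscle markers the level was 3.10 to 207 CPM in obese and 48.8 to 1419 CPM in lean tumours. The part of muscle in the Ppargc1a difference was not tested.

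Ppargc1b (ENSMUSG00000033871, chromosome 18, 61298136 to 61400431) stood at 0.289, 0.231, 0.425 and 0.576 CPM in obese replicates 1 to 4, from 7 to 24 counts, against 1.13, 2.09, 1.97 and 0.977 CPM in lean replicates 1 to 4, from 46 to 109 counts. The groups did not overlap. The log2 change was −2.01 ± 0.44 or 4.03-fold lower (edgeR adjusted p = 0.00620), and −2.06 ± 0.50 without obese replicate 3 (edgeR adjusted p = 0.00835). It passed under all 16 alternatives (0.000350 to 0.0208). Ppargc1a minus Ppargc1b was −1.36 ± 0.75 log2 units in obese and 0.08 ± 0.43 in lean tumours, a difference of −1.44 in which all 4 obese tumours lay below the lean ones. The two-sided exact permutation p was 0.0286, the smallest possible, and 0.114 after adjustment over the 4 pairs. Given the p-values of the other pairs, no smaller adjusted p could be reached. The test could therefore not pass for this pair and does not decide whether the 2 changes differ.

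**Figure D2:**
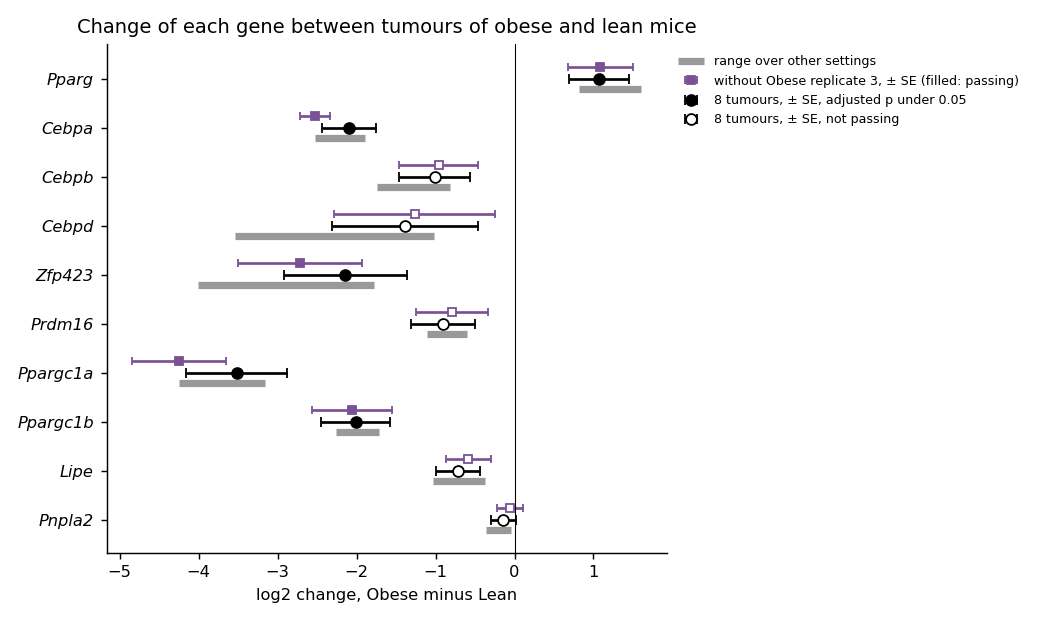
Log2 change (obese minus lean) of each gene with SE in all 8 tumours (circles, filled where the adjusted p is under 0.05) and without obese replicate 3 (squares, filled likewise), with the range over all other settings in grey. Pparg lies right of 0 and the other 9 genes left of it, from Ppargc1a at −3.52 to Pnpla2 at −0.14.

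Neither lipase passed the test in all 8 tumours, and Lipe was close to the threshold. Pnpla2 (ENSMUSG00000025509, chromosome 7, 141455198 to 141460743) stood at 80.6, 83.5, 66.0 and 84.6 CPM in obese replicates 1 to 4, against 83.9, 65.1, 96.3 and 101.6 CPM in lean replicates 1 to 4. The obese tumours lay within the lean range, and lean replicates 3 and 4 lay above every obese tumour, with a log2 change of −0.14 ± 0.16 (edgeR adjusted p = 0.464), and the adjusted p was 0.0857 to 0.823 over 16 alternatives. Lipe (ENSMUSG00000003123, chromosome 7, 25379527 to 25398710) stood at 14.5, 11.6, 11.9 and 26 CPM in obese replicates 1 to 4, against 23.2, 30.3, 27.6 and 23.8 CPM in lean replicates 1 to 4. Obese replicate 4 lay within the lean range and the other 3 obese tumours below it. The log2 change was −0.71 ± 0.28 (edgeR adjusted p = 0.0558), and it passed without obese replicate 4 (−1.04 ± 0.18, edgeR adjusted p = 0.00621) and in 6 other alternatives of 16, within a range of 0.00621 to 0.166. Of its exon bases 15.6% are shared with the antisense RNA gene 4732471J01Rik, which had 0.406 to 0.504 CPM in obese and 0.0710 to 0.123 CPM in lean tumours, far less than Lipe. Lipe minus Pnpla2 was −2.37 ± 0.48 log2 units in obese and −1.71 ± 0.43 in lean tumours, a difference of −0.66 (two-sided exact permutation p = 0.114, adjusted 0.152). After adjustment this pair could not have passed either, given the p-values of the other pairs.

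Levels of fat cell markers differed from tumour to tumour, in both groups. The adipokine gene Adipoq, made by mature fat cells, stood at 4.29, 0.907, 2.05 and 49.6 CPM in obese and 24.5, 57.4, 23.4 and 11.2 CPM in lean replicates 1 to 4. The lipid droplet gene Plin1 had 1.28, 0.874, 0.155 and 6.70 CPM in obese and 2.11, 8.93, 6.23 and 1.78 CPM in lean replicates 1 to 4. Obese replicate 4 and lean replicate 2 held the most of both markers in their groups, and they were also the highest tumours of their groups for Pparg, Lipe, Ppargc1b and Prdm16. With these tumours set aside, Pparg stood at 6.11 to 8.66 CPM in obese and 2.41 to 3.90 CPM in lean tumours. Adipoq then stood at 0.907 to 4.29 CPM in obese and 11.2 to 24.5 CPM in lean tumours. The tumours set aside are the highest of their groups for both Adipoq and Pparg. This split therefore cannot decide whether either gene differs between the groups. Over all tumours the Adipoq ranges overlapped, with a log2 change of −1.03 ± 1.19 (edgeR adjusted p = 0.468). Of 20 markers of white fat cells 19 were tested, of which 1 rose and 6 fell. Their sums were 305 to 1078 CPM in obese and 467 to 1169 CPM in lean tumours. Adipor2 rose (1.03 ± 0.21). Those that fell were Slc2a4 (−5.40 ± 1.21), Adrb3 (−3.21 ± 1.09), Lgals12 (−2.95 ± 0.99), Cfd (−2.42 ± 0.81), Gpd1 (−1.94 ± 0.68) and Dgat2 (−1.58 ± 0.56). The share that fell is close to the 28.4% over all tested genes, and the share that rose is below the 30.9% there. The number that fell was 11 without obese replicate 4, 3 without obese replicate 3, lean replicate 1 or lean replicate 4, 2 without lean replicate 2 and 1 without obese replicate 1 or lean replicate 3. The part of fat cell content in the values of Pparg, Lipe, Ppargc1b and Prdm16 was not tested.

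Myeloid cells are another known source of Pparg and of C/EBP factors. The macrophage gene Cd68 stood at 138 to 200 CPM in obese and 40.3 to 86.1 CPM in lean tumours, and the integrin gene Itgam at 145 to 214 CPM in obese and 15.0 to 34.2 CPM in lean tumours. The most abundant macrophage markers were lower on average but did not pass: the lysozyme gene Lyz2 stood at 526 ± 139 CPM in obese and 805 ± 295 CPM in lean tumours, and the complement gene C1qa at 296 ± 76.4 CPM in obese and 499 ± 215 CPM in lean tumours. C1qb, another complement gene, stood at 311 ± 73.6 CPM in obese and 464 ± 173 CPM in lean tumours. Of 18 macrophage and myeloid markers 7 rose and 1, Csf1r, fell, against 30.9% and 28.4% over all tested genes. The sum over all 18 was 2164 to 2782 CPM in obese and 1493 to 4115 CPM in lean tumours and overlapped. A count of 5 fell without lean replicate 2 or with DESeq2, and 0 without any 1 of obese replicates 1, 2 and 4 or lean replicates 1, 3 and 4. The part of these cells in the Pparg difference was not tested.

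**Figure D3:**
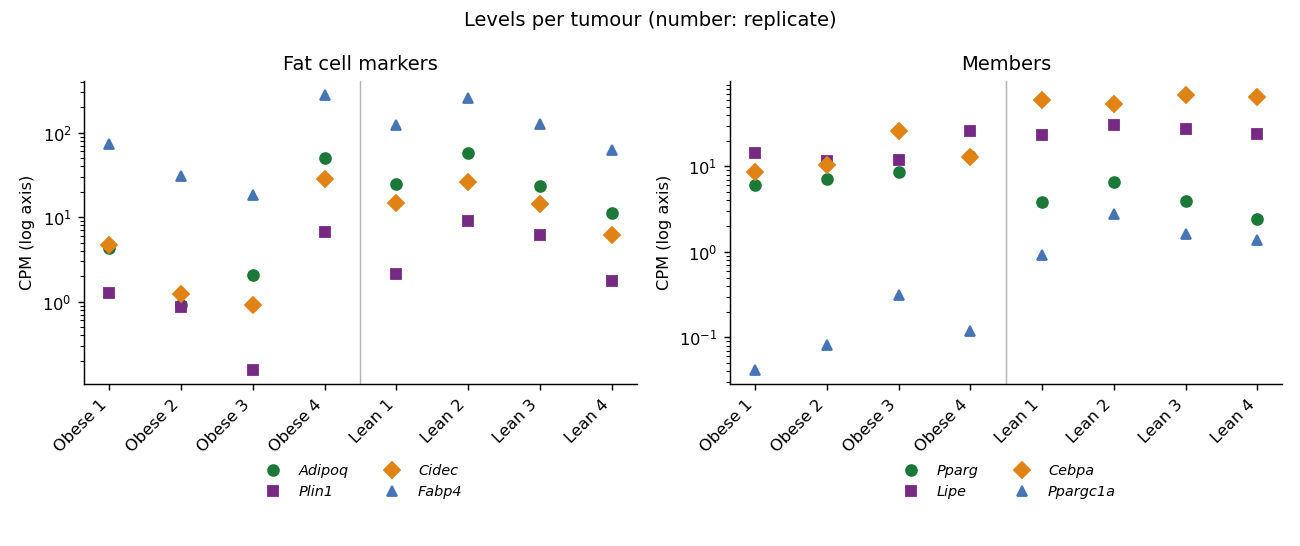
Levels (CPM, log axis) of 4 fat cell markers (left) and of 4 of the genes described (right) in each tumour, obese replicates left of the grey line and lean replicates right of it. Adipoq, Plin1, Cidec and Fabp4 peak in obese replicate 4 and lean replicate 2, as do Pparg and Lipe, while Cebpa does not.

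The genes around the cascade went both ways, against 30.9% higher and 28.4% lower over all tested genes. All 4 tested genes of the PPAR and RXR receptors passed. Ppard, the widely expressed PPAR, stood at 94.6 ± 34.1 CPM in obese and 38.0 ± 6.42 CPM in lean tumours and rose (log2 change 1.32 ± 0.25), as did Rxrb (0.68 ± 0.17). Rxra, the main partner of PPARG, fell, with 53.0 ± 8.52 CPM in obese and 113 ± 9.13 CPM in lean tumours (−1.09 ± 0.14). Ppara, the PPAR of fatty acid oxidation, was named after its values were seen and fell too (−4.41 ± 0.89). It had 0.0830 ± 0.0563 CPM in obese and 1.94 ± 1.70 CPM in lean tumours. Its obese level lay near that of 3 counts (0.0450 to 0.117 CPM), which limits the precision of this change. Among 20 other transcription factors that favour fat cell formation 9 fell and 3 rose (median −0.64). Srebf1, a driver of lipid synthesis, had 225 ± 210.1 CPM in obese and 1471 ± 570.3 CPM in lean tumours, and Zfp467 fell by 2.21 on the log2 scale, while the glucocorticoid receptor gene Nr3c1 stood at 0.02 ± 0.15. The count that rose was 1 under scaling by library size alone or by upper quartile factors and without obese replicates 2 or 4 or lean replicates 3 or 4. Of 18 tested genes that hold the process back 8 rose and 4 fell (median 0.40, or −0.03 with no filter on low counts). They include Bhlhe40 (1.70 ± 0.21), Sirt1 (2.16 ± 0.26) and Wwtr1 (1.63 ± 0.22), which rose, and Sox9 (−1.31 ± 0.31), which fell. Without obese replicate 3 a count of 7 fell, of the genes tested then.

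Of 28 tested genes listed as PPARG targets 6 fell and 1 rose, with a median of −0.84. Over all tested genes 28.4% fell and 30.9% rose, so both shares are smaller among these targets. With limma-voom and quality weights 8 fell and 6 rose, with a median of −0.29. The gene that rose was Angptl4, an inhibitor of lipoprotein lipase (2.47 ± 0.46). Ucp2, a mitochondrial carrier, fell (−1.55 ± 0.21), as did the desaturase Scd1, with 273 ± 155 CPM in obese and 703 ± 28.2 CPM in lean tumours, while the droplet protein gene Plin2 did not pass (484 ± 133 CPM in obese, 703 ± 266 CPM in lean tumours). Without obese replicate 4 the number that fell was 14, and 2 rose without obese replicate 1, obese replicate 3 or lean replicate 2. In a list of genes around triglyceride breakdown, 9 of 29 tested genes fell and 2 rose (median −0.81). The list mixes lipases with carriers, droplet proteins and genes that restrain breakdown, so its counts give no direction for breakdown itself. The share that fell is close to that over all tested genes, and the share that rose is smaller. Fabp5, a fatty acid carrier, stood at 127 ± 67.2 CPM in obese and 466 ± 33.4 CPM in lean tumours, and the phospholipase gene Pnpla6 fell by 1.36 on the log2 scale. Mgll, the lipase of the final step, was named after its values were seen, with 12.3 ± 6.63 CPM in obese and 59.4 ± 30.7 CPM in lean tumours (−2.28 ± 0.50). The lysosomal lipase gene Lipa did not pass (190.0 ± 63.3 CPM in obese and 161 ± 29.0 CPM in lean tumours). Without 1 tumour the count that fell ran from 6 to 13, and the count that rose from 2 to 3. Some genes stand in more than 1 of these lists.

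Of 23 tested partners and targets of the PGC-1 coactivators 7 rose and 7 fell, close to the shares over all tested genes (30.9% higher and 28.4% lower). Their median was 0.13, or −0.07 under upper quartile and −0.05 under library size scaling. The citrate synthase gene Cs stood at 614 ± 81.2 CPM in obese and 264 ± 32.5 CPM in lean tumours and rose, as did Tfam, a factor of mitochondrial DNA (0.73 ± 0.10), and the ATP synthase gene Atp5b (0.68 ± 0.14). The cytochrome oxidase gene Cox4i1 fell (−0.46 ± 0.16). Of 11 other factors and regulators of the C/EBP and CREB families 6 rose and 1 fell (median 0.64): Atf4 (0.92 ± 0.12), Cebpg (0.63 ± 0.17) and Cebpz (1.37 ± 0.10) rose, and Trib1, whose product promotes breakdown of C/EBP alpha, fell (−1.46 ± 0.30). Without obese replicate 3 a count of 2 fell. Of 19 coactivators and corepressors 4 rose and 6 fell, with Carm1 at 1.09 ± 0.16, Ctbp1 at −0.71 ± 0.10 and Hdac3 at −1.08 ± 0.27. Ncor1 and Ehmt2 did not pass (0.43 ± 0.20 and 0.32 ± 0.21). Among 11 tested markers of thermogenic fat 3 rose, Tbx1 (4.18 ± 0.43), Tmem26 (1.69 ± 0.30) and Tnfrsf9 (1.79 ± 0.46). The mitochondrial gene Cox7a1 fell (−1.89 ± 0.46), and the other 7 had negative changes that did not pass, such as Cox8b at −3.50 ± 1.40, Cidea at −2.60 ± 1.27 and Pdk4 at −1.62 ± 0.83. The median over the 11 was −1.25 (−0.29 with limma-voom and quality weights), and 4 fell with limma-voom or DESeq2 and 3 without obese replicate 3 or 4. Ucp1, the defining gene of brown fat, had at most 0.0480 CPM in obese and 0.0710 CPM in lean tumours, near the level of 3 counts (0.0450 to 0.117 CPM). Of 14 precursor markers 4 rose and 7 fell, with Pdgfrb, Pdgfra (1.44 ± 0.37) and Ly6a (1.73 ± 0.39) higher and Col15a1 (−1.40 ± 0.27) and Anxa3 (−1.11 ± 0.38) lower.

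**Figure D4:**
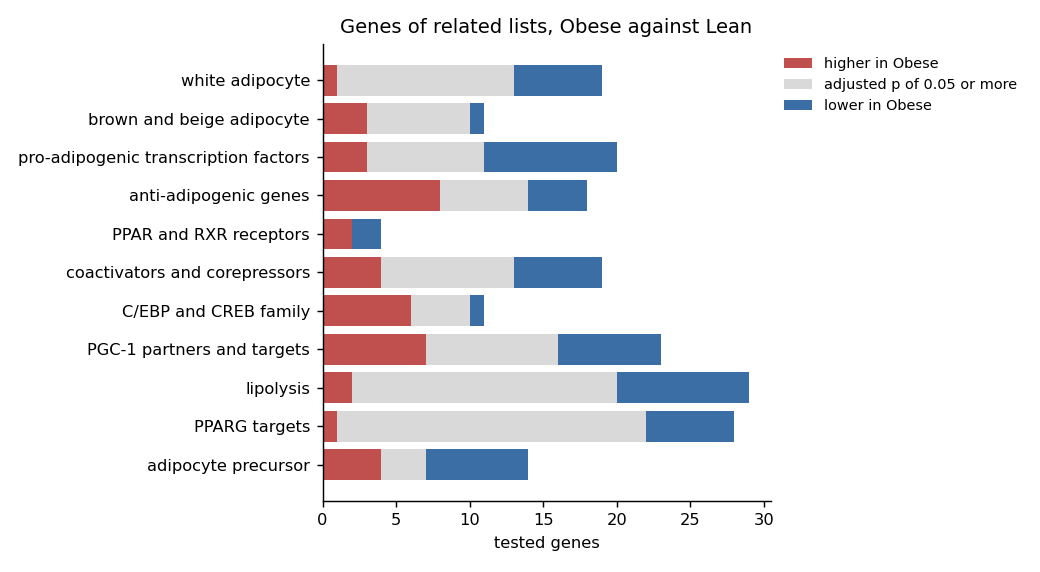
Number of tested genes per related list that were higher in obese tumours, did not pass or were lower in obese tumours (edgeR adjusted p under 0.05, adjusted over all tested genes). Genes that favour fat cell formation have more lower than higher genes (9 against 3), and genes that hold it back more higher ones (8 against 4). The list around triglyceride breakdown, which mixes lipases with carriers, droplet proteins and genes that restrain breakdown, has 9 lower and 2 higher. Over all tested genes 28.4% were lower and 30.9% higher.

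Per kilobase of exon (RPKM), Cebpb was highest over the 8 tumours with a mean of 30.4, followed by Pnpla2 with 27.4 and Cebpa with 14.4. Cebpd (4.28), Lipe (3.59), Zfp423 (2.54) and Pparg (2.19) formed a middle group whose ranges overlap. Ppargc1b (0.241), Ppargc1a (0.137) and Prdm16 (0.0782) were lowest, all at most 0.523 RPKM in every tumour and thus below the lowest Pparg value of 0.818. In obese tumours the order changed at the top: Pnpla2 had 26.1 ± 2.86 RPKM, Cebpb 20.2 ± 10.3 and Cebpa 5.47 ± 2.97. In lean tumours Cebpb had 40.6 ± 16.8 RPKM, Pnpla2 28.7 ± 5.37 and Cebpa 23.4 ± 2.47. The values of Pnpla2 and Cebpb lay within 1 SD of Cebpb in both groups.

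For each gene the tested genes with the most similar profile were found by the mean absolute difference of centred log2 CPM over the 8 tumours, as a description without a test. Cebpa was most like Acsf3 and Lrrc1 (each 0.093 log2 units), Ppargc1a like Trim62 (0.15) and Ptpn13 (0.21), and Ppargc1b like Pdgfb (0.20) and Colec12 (0.22). Pparg was most like Cdkn3 (0.14) and Rrm2 (0.15), and Cebpb like Hist1h1c (0.16) and Mrps12 (0.17). Pnpla2, which varied least, was most like Zfp282 (0.057) and Rab11fip3 (0.072), Lipe like Acsl1 (0.14) and Atp5mpl (0.16), and Prdm16 like Shroom4 and Robo4 (each 0.13). The differences were larger for Zfp423, with Faim2 (0.36) and Trp53i11 (0.38), and for Cebpd, with Rgs9 (0.42) and Cish (0.51). They are not scaled to how much a gene varied. The mean absolute deviation was 1.46 for Zfp423, 1.48 for Cebpd and 0.17 for Pnpla2.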

How the data were processed

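Per the labels' protocols, RNA of 8 tumours (4 per group) went through a strand-specific TruSeq preparation. Raw counts per Ensembl gene were deposited by the authors, 1 column per tumour. STAR 2.5.2b and HTSeq on mm10, after trimming with cutadapt 1.12, are named in the submitters' processing notes, as are bcl2fastq 2.18.0.12 and CASAVA 1.8. The annotation and strand setting are not given in the sources used here. Symbols, coordinates and exon lengths came from GENCODE M21 (GRCm38), which named 49412 of 50143 IDs.

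Counts were filtered with filterByExpr (minimum count 10, minimum total 15), scaled with TMM and fitted in edgeR, whose robust quasi-likelihood test gave p-values (Benjamini-Hochberg over all tested genes, threshold 0.05). The SE is the log2 change over the square root of F. Pairs of genes were compared on log2 CPM (prior count 2) by exact permutation over 70 splits. RPKM divides CPM by exon length, and a count of 0 is taken to allow up to 3 counts (counting error only). The members and lists were chosen with earlier results of these data known. All members are named, and from each list up to 3 of the most abundant genes and up to 2 with the smallest p were eligible, of which the text names part. Adipoq, Plin1, Cidec, Cd68, Csf1r, Ucp1, Cidea, Cox7a1, Cox8b, Ppara and Mgll fall outside this rule and were named after their values were seen. The same holds for Cfd, Lgals12, Gpd1, Dgat2 and Adrb3. Alternatives were other scalings, filters and tests and leaving out each tumour. DESeq2 1.42.0, limma 3.58.1 and edgeR 4.0.16 ran in R 4.3.3. On simulated data for obese against lean (14767 genes), the test called 8.08% of the 99 genes simulated with a 2-fold change and 51.5% of the 97 with a 4-fold change, with 3 unchanged genes called and 0 wrong signs. No other genes among them were changed, while 59.2% of the tested genes passed in the tumours. The adjustment was thus stricter in the simulation, and these rates do not give the power of the comparison itself.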

Additional observations from a re-analysis of the deposited data

Results flagged for a closer look

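In lean tumours Cebpb stood at 23.5 CPM in replicate 2, against 70.1 to 78.1 CPM in the other 3. The gap to the nearest tumour was 0.854 of the whole range of the group, above Dixon's critical value at the 95% level for 4 tumours. Of the 20 groups of member values examined it is the only one past its critical value, and chance gives about 1 in 20.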

How the results depend on the processing

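Over the 16 alternatives none of the 10 genes changed direction. The calls of Cebpa and Ppargc1b held in all 16 and that of Ppargc1a in the 15 that tested it, and the values for the calls of Pparg and Zfp423 that ended, and for those of Cebpb, Cebpd and Lipe that appeared, stand with each gene. Pparg also missed the threshold with upper quartile factors (edgeR adjusted p = 0.0793), with library size only (0.0818) and with a filter of 1 CPM in 4 tumours (0.0535), and its change was 1.61 with limma-voom and quality weights. Prdm16 passed with upper quartile factors (edgeR adjusted p = 0.0431). The number of members higher in obese tumours was 0 under upper quartile scaling, library size scaling and the filter of 1 CPM (edgeR; at an unadjusted p under 0.05 it was 0, 0 and 1, and limma-voom and DESeq2 called 1). The number lower was 7 with upper quartile factors. Leaving out 1 tumour gave 3 to 6 members past the threshold, 0 to 1 higher and 3 to 5 lower, and 7143 to 9833 genes in all. Upper quartile factors moved the median of all genes by −0.21 and library size only by −0.19 (log2). The 4 pairs of genes kept their direction in all alternatives, and none passed. With 3 against 4 tumours the exact test cannot pass the threshold. No paired analysis was possible because the labels give no replicate numbers that the groups share. The counts behind Ppargc1a, Ppargc1b and Prdm16 limit the precision of their changes.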

Other observations

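Other cell types in the tumours were described from marker lists chosen as above. Beside their counts stand the shares over all tested genes, 30.9% higher and 28.4% lower. Of 10 fibroblast markers 2 rose and 5 fell, with Col3a1, a fibrillar collagen, at 1837 ± 1227 CPM in obese and 552 ± 87.1 CPM in lean tumours, and Fap at 2.26 ± 1.96 CPM in obese and 18.7 ± 8.96 CPM in lean tumours. Of 10 endothelial markers 4 fell and 1 rose, the TGF-beta coreceptor gene Eng (1.77 ± 0.17), and 2 fell without obese replicate 1 or lean replicate 2. Of 8 B cell markers 7 fell and 0 rose. Cd79a, a chain of the B cell receptor, had 0.905 ± 0.771 CPM in obese and 12.9 ± 4.08 CPM in lean tumours. Of 10 skeletal muscle markers 2 fell and 0 rose, 6 without obese replicate 3, 5 without lean replicate 2, 1 without obese replicate 1 or 2 or lean replicate 1 or 4, and 0 without obese replicate 4.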
